A study of Drosophila melanogaster with 20 samples.

Results

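The ecdysone receptor EcR was mapped on the chromatin of 3 fruit fly tissues, and 355 of the 3463 sites in the study had a supernatant peak in the wing alone. These members were the sites that the authors' overlap columns mark for the wing supernatant list and for neither the leg nor the salivary gland supernatant list. Sites on chromosomes 4, Y and M were left out, as were midpoints from 22 Mb on 2L, from 23 Mb on 3L, under 4.5 Mb on 3R and from 22 Mb on X. That left 3032 sites, of which the members made up 11.7%. The peak calls of all 3 tissues chose the members. Supernatant peak strengths and fold changes between these tissues are therefore a description of what the choice brought in, with no test.

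Wings, legs and salivary glands came from female larvae in the wandering stage, 6 hours before puparium formation, at which time the wing and the leg are still imaginal discs. All 3 tissues had the genotype w; EcR-GFSTF / Df(2R)BSC313, in which 1 copy of EcR carries a tag with GFP and Flag and the other second chromosome carries a deficiency. There was no tissue with untagged EcR among the anti-Flag libraries. Per the labels, at least 90 wings or legs or 50 glands were dissected, so each library is a pool of animals. CUT&RUN, in which a tethered nuclease cuts DNA beside an antibody, was done with anti-Flag, and fragments released into the supernatant were sequenced apart from those kept in the pellet. There were 2 replicates for each tissue and fraction, 12 anti-Flag libraries in all. Whether replicates came from separate dissections is not stated, so p-values measure the spread between libraries, which may be technical. IgG libraries from wild-type wings (6) and tagged glands (2) were not analysed here. Peaks came as 6 lists from merged replicates and differences as 3 tables, with no value for a single library. The tissue labels could not be checked with expressed markers in these data. Coordinates are on dm6.

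EcR is a nuclear receptor that pairs with Usp and binds DNA, and the steroid ecdysone switches the pair from repressing to activating its target genes. The hormone peak at the end of larval life starts metamorphosis in all tissues together, yet a wing disc everts and differentiates while a salivary gland secretes glue and is later destroyed. Sites that EcR takes up in some tissues and not in others are studied because a common hormone pulse has such different outcomes. The wing disc is patterned by Dpp, Hedgehog, Wingless, Notch and EGFR signals, grows under the Hippo and insulin pathways, and is divided by selector genes such as apterous and vestigial.

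Most of the 355 wing-alone sites carried weak wing peaks. Fold enrichment over background, the authors' value for a peak, ran from 2.55 to 20.9 with a median of 4.82 in the wing supernatant list. The median of wing peaks was 7.02 at the 537 sites shared by wing and leg and 13.1 at the 350 sites of all 3 tissues. Only 43 members reached a −log10 q of 10, and 22 were under 2. The 355 sites took only 243 distinct fold enrichment values. Their sites were narrow, with a median width of 122 bp against 236 bp for sites of wing and leg. These traits were not particular to the members. The 519 sites with a leg supernatant peak alone had a median width of 104 bp and a median leg fold enrichment of 5.06. In the authors' deposited table the median of the mean normalised read count was 6.20 at the members. It was 5.37 at the leg-alone sites and 9.59 at all sites in the same table. The median standard error of wing over leg was 0.55 on the log2 scale at the members and 0.53 at all sites in the authors' deposited table.

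**Figure D1:**
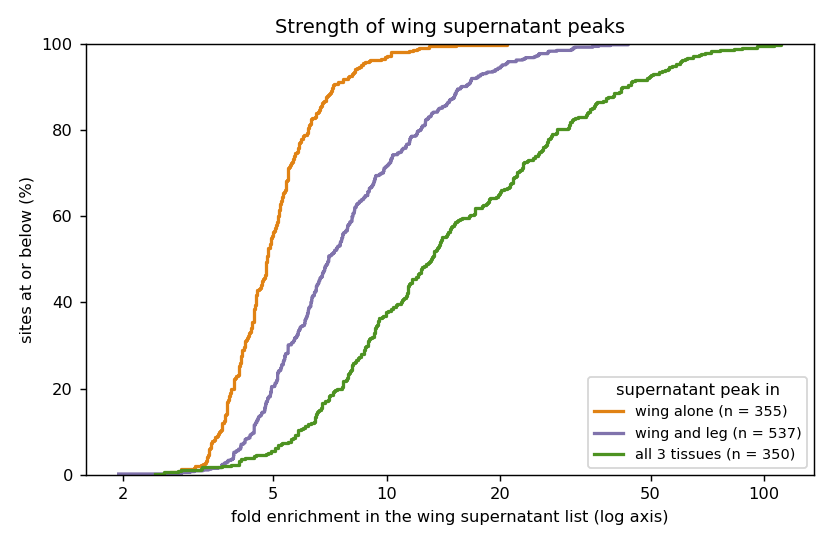
Cumulative share of sites (vertical axis, %) by fold enrichment in the authors' wing supernatant list (horizontal log axis), for sites with a supernatant peak in the wing alone, in wing and leg, and in all 3 tissues. The wing-alone curve lies to the left of the others, with a median of 4.82 against 7.02 and 13.1.

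The strongest wing-alone peak, with a fold enrichment of 20.9, lay 789 bp outside the span of CG43980 on 3L, from 21643915 to 21644423. Next came a peak 3290 bp from CG13073 at 15.3, and then peaks inside 3 genes of disc development. The apterous gene (ap), which makes the upper surface of the wing, held a peak of 12.9 on 2R from 5727148 to 5727398. Inside tkv, which encodes a type I receptor for the morphogen Dpp, a peak on 2L from 5249867 to 5250286 reached 12.2. The growth regulator expanded (ex), an upstream activator of the Hippo pathway, had 12.1 on 2L from 442538 to 442832. The other 5 of the 10 strongest were 2 peaks inside GV1 (11.7 and 10.3), 1 inside stan, a cadherin gene of planar cell polarity (11.5), and 1 each in T48 and CG15544 (both 10.3). All 10 also had a wing pellet peak, with pellet fold enrichments between 4.61 and 8.71.

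At the weak end, the 3 members with the lowest −log10 q lay in CG1688 (1.33), tou (1.34) and CG6959 (1.34). Just outside the rule were sites of wing and leg whose leg peak barely passed the caller. The lowest leg −log10 q among them were 1.58 at a site in tkv, 1.75 at a site in CG33298 and 1.81 at a site 21510 bp from CG16894. Those 3 sites had log2 fold changes of wing over leg of 0.14, 0.14 and -0.33 in the authors' deposited table. Whether such a site was called wing-alone turned on a leg peak near the threshold.

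Between wing and leg, few sites were called, whether wing-alone or not. In the authors' deposited table, 3 of the 331 members given an adjusted p were higher in the wing at an adjusted p under 0.05 (DESeq2), 0.906%, and none was lower. Over all sites of that table, 0.571% were called higher in the wing and 0.902% lower. At an unadjusted p under 0.05, 54 members were higher in the wing, against 0 lower ones, per the authors' deposited table. By that rule 3.93% of all sites were higher in the wing and 8.73% lower. The log2 fold change of wing over leg had a median of 0.48 over the members in the authors' deposited table, with quartiles of 0.15 and 0.81, and 294 of 355 were above 0. The median over all 3032 sites kept was -0.19, so the members stood 0.67 above it. That median depends on the mix of classes. It was 0.02 at sites of wing and leg and 0.10 at sites of all 3 tissues in the authors' deposited table. At sites with a leg peak alone it was -0.87, and with a gland peak alone -0.41, in the same table. Centring on -0.19 thus raises every member's value. After centring on that median, 15 members were higher in the wing than in the leg and 0 were lower, beside 1.39% and 0.491% of all sites. The label wing alone thus describes peak calls. For most members, as for most sites of that table, no difference from the leg was called.

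The 3 called sites were at GV1, ap and ex. The GV1 site, on 3L from 1813175 to 1813330, had a log2 fold change of wing over leg of 2.12 with a standard error of 0.45 (adjusted p = 0.00122) in the authors' deposited table. At ex the value was 1.58 (SE 0.39, adjusted p = 0.00964) and at the ap site from 5727148 it was 1.39 (SE 0.34, adjusted p = 0.00964), both in the authors' deposited table. The ap site lay in the first 6 Mb of 2R, next to the centromere, where the rule leaves nothing out. Without the 5 members there, 2 calls between wing and leg remained. A second ap site, from 5726858 to 5727132, had 1.86 with an adjusted p of 0.0868, and the second strong GV1 site, from 1813830 to 1813945, had 1.72 with 0.0504, both in the authors' deposited table. The tkv site missed the threshold by as little, with 1.09 (SE 0.32, adjusted p = 0.0504) in the authors' deposited table. Others of the 10 largest values, at qin, GEFmeso, CG32816 and near CG7567, CG8765 and CG13073, were between 1.54 and 1.74 with adjusted p from 0.0638 to 0.334 in the authors' deposited table.

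At the other end, the smallest values of wing over leg were -0.82 in CG44774, -0.65 in Rab3-GEF, -0.48 in CG6836, -0.47 near nompC, a mechanosensory channel gene, and -0.44 near tyn, in the authors' deposited table. Of these, none passed the test, and the Rab3-GEF site had no adjusted p. The sites at CG44774, nompC and tyn each had a leg pellet peak, although the leg supernatant list had none there.

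**Figure D2:**
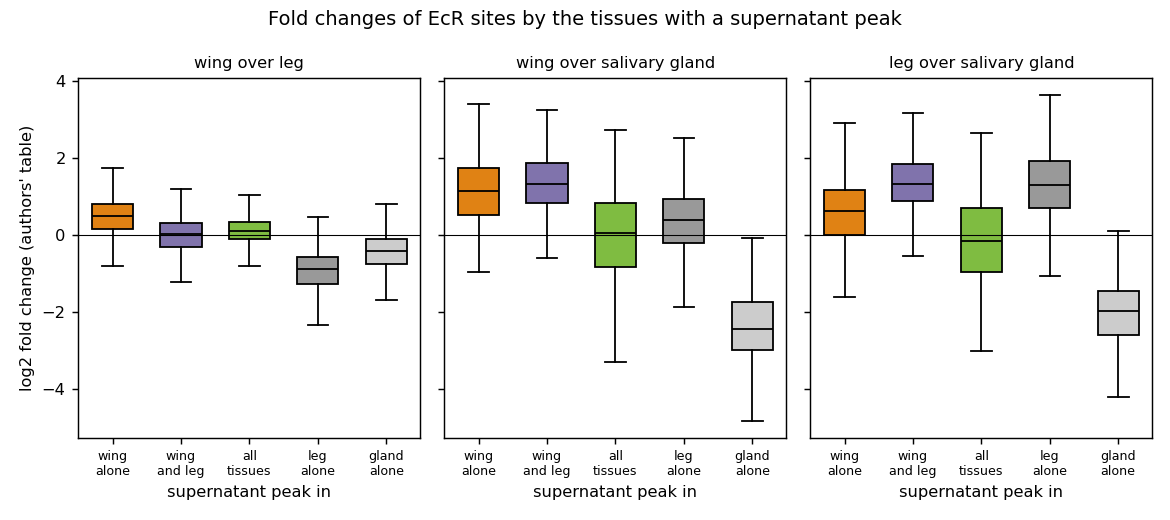
Log2 fold changes from the authors' deposited tables (vertical axis) for wing over leg, wing over salivary gland and leg over salivary gland, by the tissues in which a site had a supernatant peak. Boxes give quartiles and median, and whiskers the values within 1.5 box lengths, with sites beyond them not drawn. The wing-alone median was 0.48 for wing over leg, 1.15 for wing over gland and 0.62 for leg over gland.

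Against the salivary gland, calls were more frequent than against the leg, both among the members and over all sites. Per the authors' deposited table, 136 of 355 members (38.3%) were higher in wing than gland and none was lower. Over all sites of that table, 28.7% were called higher in the wing and 26.4% lower. The median log2 fold change of the members was 1.15 (quartiles 0.51 and 1.74) in the authors' deposited table, or 0.96 above the median of the sites kept. Centred on that median, 96 members were higher in the wing and 1 was lower, beside 23% and 28.5% of all sites. Among the 537 sites shared by wing and leg, 335 were higher in wing than gland in the authors' deposited table. The choice of members without a gland peak favours such a direction in both classes.

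The largest value belonged to a site inside msi, which encodes the RNA-binding protein Musashi, on 3R from 25532969 to 25533155. Its level was 19.1-fold higher in wing than gland (log2 fold change 4.26, SE 0.77, adjusted p = 6.65e-07) in the authors' deposited table. In the same table the zinc finger gene jing held a site with 3.39 (SE 0.80, adjusted p = 0.000184), and a site 32056 bp from the Iroquois gene mirr had 3.13 (SE 0.72, adjusted p = 0.000155). A site inside InR, the insulin receptor gene, stood at 3.10 (SE 0.87, adjusted p = 0.00138) in the authors' deposited table. Sites in Sb, whose protease discs need to evert, in cic, a repressor gene acting below EGFR, in boi, a Hedgehog co-receptor gene, and in mtgo had 2.82, 2.76, 2.70 and 2.85 in the authors' deposited table. The 10 were completed by sites 331 bp from AstCC (2.97) and 135135 bp from DIP1 (2.77) in the authors' deposited table. Mean normalised counts at the 10 ran from 3.68 in cic to 10.1 in Sb in the authors' deposited table. The median over all members was 6.20 in the same table. The InR, cic, boi, AstCC and DIP1 sites were below that median, and the msi, jing, mirr, Sb and mtgo sites above it. The part of low counts in these large values was not tested. At all 10 of these sites the leg, too, was called higher than the gland: leg over gland was 3.43 at msi, 2.91 at jing, 2.04 at the mirr site and 2.42 at InR in the authors' deposited table.

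At the low end of wing over gland, Raf had -0.97, a site 259 bp from CG14662 had -0.94, CAP had -0.75, a site 9825 bp from CG43245 had -0.65 and one 727 bp from Ntf-2r had -0.63 in the authors' deposited table. No adjusted p was under 0.05, with the lowest at 0.0567 near CG14662. Gland pellet peaks stood at the CG14662, CAP and CG43245 sites.

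Leg and gland, the tissues without a supernatant peak at these sites, were called different at 54 of them. In the authors' deposited table, 50 of 355 members were higher in the leg than in the gland, 14.1%, and 4 were lower, 1.13%. Over all sites of that table, 29.6% were higher in the leg and 22.7% lower. Centred on the median of the sites kept, the split became 21 higher and 11 lower, beside 17.9% and 27.2% of all sites. The highest leg values lay at msi, near DIP1 and AstCC, at jing and at cic, between 2.69 and 3.43 in the authors' deposited table. The 4 lower in the leg were near jim, a zinc finger gene (-1.89, adjusted p = 0.00805), near CG14662 (-1.60, adjusted p = 0.00288), near CG43245 (-1.47, adjusted p = 0.0166) and in the overlapping spans of Hr3, CG12912 and CG46321 (-1.02, adjusted p = 0.0439), in the authors' deposited table. Each of these 4 also had a gland pellet peak.

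Put in order, the wing was the highest of the 3 tissues at 269 of 355 members (75.8%), the leg at 54 and the gland at 32. The order wing, leg, gland held at 214 sites and the order wing, gland, leg at 55. Choosing sites with a wing peak alone favours the wing in these orders. Over all sites of the authors' deposited tables, wing over leg was above 0 at 37.7% and wing over gland at 58.8%. Of the 136 members called higher in wing than gland, 45 were also called higher in the leg than in the gland, and 91 were not. All 3 calls against the leg were also calls against the gland. None of the 3 comparisons called 210 members. These orders and joint calls were counted for the members only, so they are not shown to be particular to them. The comparisons share libraries: mean counts were equal in the 3 tables, and wing over gland equalled the sum of the other fold changes within 0.01 at 3462 of 3463 sites. The third comparison therefore holds little that the other 2 do not.

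**Figure D3:**
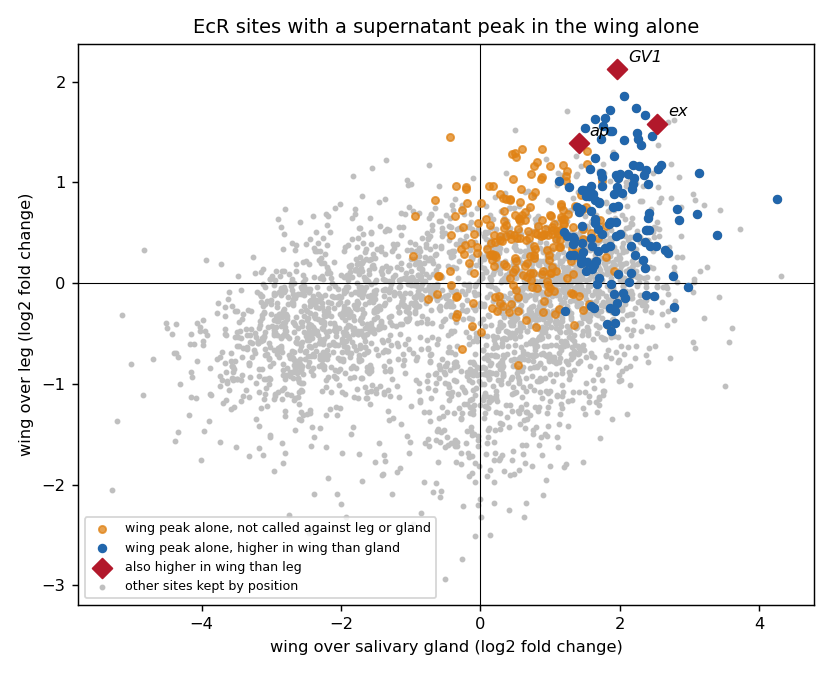
Each point is a site, placed by its log2 fold change of wing over salivary gland (horizontal axis) and of wing over leg (vertical axis) in the authors' deposited tables. Coloured points are the 355 wing-alone sites and grey points the other sites kept. Blue circles and red diamonds together are the 136 called higher in wing than gland, and the diamonds at GV1, ap and ex are those also called higher in wing than leg.

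The pellet libraries were not used to choose the members. Pellet and supernatant are fractions of CUT&RUN on the same tissues, with matching replicate labels, so a pellet peak is not independent evidence. A wing pellet peak stood at 131 of 355 wing-alone sites, 36.9% (exact 95% interval 31.9 to 42.2). A leg pellet peak stood at 16, 4.51% (2.60 to 7.22), and a gland pellet peak at 10, 2.82% (1.36 to 5.12). No member had both a leg and a gland pellet peak. At 108 members the wing was the only tissue with a pellet peak, and 221 had none in any tissue. The wing pellet list is the longest, with 1545 peaks against 1010 for the leg and 936 for the gland. As shares of the kept sites with a pellet peak in that tissue, the members made up 10.6% for the wing (131 of 1233), 16 of 696 for the leg and 1.14% for the gland (10 of 881), beside 11.7% of all kept sites. Intervals treat sites as independent and cover counting error only. Counting pellet peaks only from a −log10 q of 10, the shares were 8.45%, 3.38% and 0.282%.

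Wing pellet peaks were found at 81.2% of the sites of wing and leg (77.6 to 84.4) and at 92.9% of the sites of all 3 tissues (89.6 to 95.3), both above the share of the wing-alone sites. At leg-alone sites the wing pellet share was 11.9% (9.28 to 15.1) and at gland-alone sites 2.36% (1.36 to 3.81). Leg-alone sites had a leg pellet peak in 9.83% of cases (7.40 to 12.7), and gland-alone sites a gland pellet peak in 52.7% (48.9 to 56.5). These classes differ in peak strength and the lists in length, and no test between them was made.

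**Figure D4:**
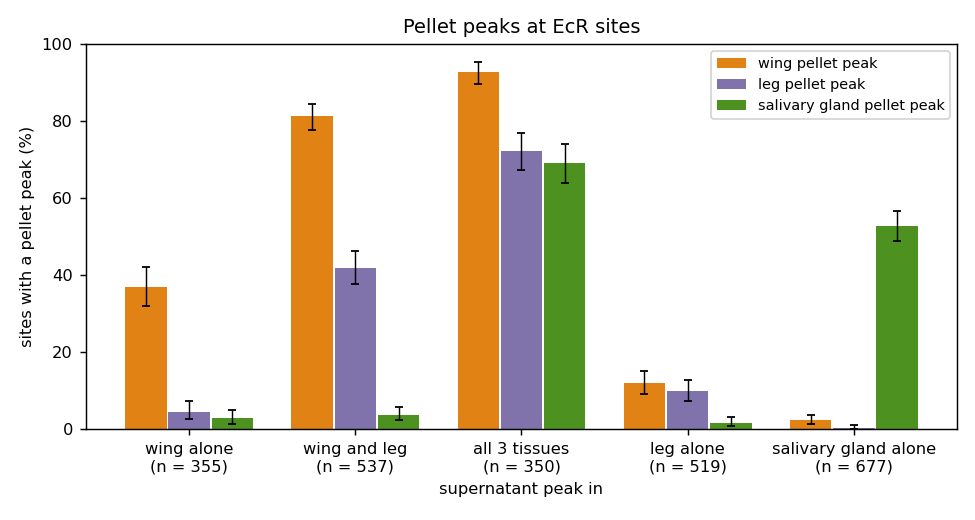
Share of sites with a pellet peak in wing, leg and salivary gland (vertical axis, %), for sites grouped by the tissues with a supernatant peak. Error bars are exact 95% binomial intervals. Of the wing-alone sites 36.9% had a wing, 4.51% a leg and 2.82% a gland pellet peak.

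Members with a wing pellet peak were the stronger ones. Their median wing supernatant fold enrichment was 5.48, against 4.47 for the 224 without, and their median mean count was 10.1 in the authors' deposited table, against 6.20 over all members. All 3 sites called between wing and leg were among them, and the one in ex had a leg pellet peak as well (3.65, against 7.66 in the wing pellet list). Of the 131, 77 (58.8%) were called higher in wing than gland, against 59 of the 224 (26.3%) without a wing pellet peak, in the authors' deposited table. The share over all sites of that table was 28.7%. Mean counts moved with the split by wing pellet peak, and their part in the calls was not tested. The strongest wing pellet peaks of the members were at nAChRalpha3, a subunit gene of the nicotinic receptor (10.5), and at 2 sites 15364 and 15891 bp from CG9380 (9.67 and 9.78). The leg pellet list had peaks at these 3 sites as well, with fold enrichments of 10.1, 7.23 and 6.20. Their log2 fold changes of wing over leg were 0.03, 0.21 and -0.37 in the authors' deposited table. Near CG43980 and in CG15544, where the leg pellet list had no peak, wing pellet enrichment was 8.08 and 8.71.

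The 10 gland pellet peaks were at RapGAP1, Hr3, CAP, CG42741 with twi, CG18135, Eip78C and tara, and near CG43245, jim and CG14662. Wing over gland at these sites ran from -0.94 to 0.01 and was called at none of them in the authors' deposited table. The Hr3 and CAP sites had no wing pellet peak. At the others, pellet enrichment was higher in the gland except at RapGAP1 (5.45 in the wing, 4.73 in the gland). The wing and gland values were close at Eip78C (6.04 and 6.09) and further apart near CG43245 (3.99 and 7.71). Medians of the whole pellet lists differ as well, with 4.22 for the wing and 6.51 for the gland. All but 1 of the 16 leg pellet peaks coincided with a wing pellet peak, and the exception was the site in CG44774.

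Members lay inside coding gene spans at 219 of 355 sites, 61.7% (56.4 to 66.8), against 69.9% of all sites kept. Another 48 were within 2000 bp of a span and 62 were more than 5000 bp away. Exons, introns and strand are not in the gene table used. By chromosome arm, the members made up 9.47% of the kept sites on 2L, 13.3% on 2R, 11.9% on 3L, 13.7% on 3R and 9.48% on X, and the exact 95% intervals of the 5 shares overlapped.

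Many wing-alone sites lay among other EcR sites. Another kept site stood within 5000 bp of 53.2% of the members, against 71.9% of the sites of wing and leg and 75.7% of those of all 3 tissues. The share was 58.4% for leg-alone sites and 49.0% for gland-alone sites. A site of wing and leg or of all 3 tissues was within 5000 bp of 112 members (31.5%). The 219 members inside gene spans fell into 180 genes or sets of overlapping genes. In 77 of these a site of wing and leg or of all 3 tissues was also present, and in 72 the wing-alone sites were the only EcR sites. GV1 (3 sites) and ap (2 sites) held wing-alone sites only. The most in a gene were 4, in Samuel among 17 sites and in tou among 9.

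Genes of wing identity and vein patterning had 7 wing-alone sites among 32 EcR sites within 2000 bp, 21.9%, beside 11.7% over all kept sites. They belonged to 6 of the 15 listed genes with any site: ap with 2, and vg, bi, mirr, ptc and Ser with 1 each. The ap sites adjoin, one ending at 5727132 and the other starting at 5727148, so they may not be independent. Both ap sites were higher in wing than gland (2.05 and 1.41, adjusted p = 0.0125 and 0.00264) in the authors' deposited table. They were the only EcR sites of the gene, but the median wing over gland of the 38 sites in the first 6 Mb of 2R was already 1.44 in the authors' deposited table. The median wing over leg of those 38 sites was -0.27 in the authors' deposited table, beside 1.86 and 1.39 at the ap sites. The site in vestigial (vg), whose product specifies wing cells, had a −log10 q of 1.43 and a mean count of 3.59, with 0.89 for wing over leg (SE 0.81) and 0.28 for wing over gland (SE 0.82) in the authors' deposited table. For mirr, an Iroquois gene of dorsal patterning, the site 1222 bp outside had 1.31 and 1.53 (adjusted p = 0.28 and 0.0521) in the same comparisons of the authors' deposited table. The T-box gene bi, a target of Dpp, had 0.59 and 1.19, and the Notch ligand gene Ser 0.62 and 0.34, with no call in the authors' deposited table.

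In the Dpp and Hedgehog pathways 7 of 35 sites were wing-alone. Among the Dpp receptors, tkv was called higher in wing than gland (1.99, SE 0.41, adjusted p = 9.91e-06), while put, the type II receptor gene of the same pathway, was not (0.58, SE 0.70), per the authors' deposited table. The tkv gene had 5 sites in all, of which 3 were shared by wing and leg. Among Hedgehog receptors, boi was called higher in the wing (2.70, SE 0.80, adjusted p = 0.0029) and ptc was not (0.98, SE 0.67, adjusted p = 0.219) in the authors' deposited table. Both members in dally, a glypican gene that shapes the spread of Dpp and Wingless, and the member in shn, a zinc finger cofactor gene of Dpp signalling, were not called, with wing over gland of 0.19, 1.09 and 0.91 in the authors' deposited table.

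The Wnt and planar polarity list had 3 wing-alone sites among 42, 7.14%. Of these stan was higher in wing than gland (1.54, SE 0.58, adjusted p = 0.0194), while nkd, an inhibitor of Wnt signalling, had 0.77 and the Wingless receptor gene fz2 1.35 without a call in the authors' deposited table. The Notch and EGFR list had 6 among 52, 11.5%. The receptor gene Egfr held 2, from 21523966 and from 21553934 on 2R, with 2.15 (SE 0.66, adjusted p = 0.00584) and 1.14 (SE 0.72, adjusted p = 0.178) for wing over gland in the authors' deposited table. The Notch coactivator gene mam, the Notch inhibitor gene numb and pnt, a transcription factor gene below EGFR, had 0.43, 0.12 and 0.53 without a call in the authors' deposited table.

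In the Hippo and growth list 5 of 38 sites, 13.2%, were wing-alone. Of the 5, 3 were called higher in wing than gland, beside 28.7% of all sites of the authors' deposited table. These were ex (2.53, SE 0.50, adjusted p = 4.77e-06), foxo, which insulin signalling restrains (1.94, SE 0.54, adjusted p = 0.00162), and 1 of the 2 sites in InR, in the authors' deposited table. The called InR site started at 21616875 on 3R. The other, from 21613408, had 0.22 (SE 0.43) in the authors' deposited table and 4 sites of all 3 tissues as company in the gene. The Hippo kinase gene wts had 0.44 (SE 0.68, adjusted p = 0.476) in the authors' deposited table.

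**Figure D5:**
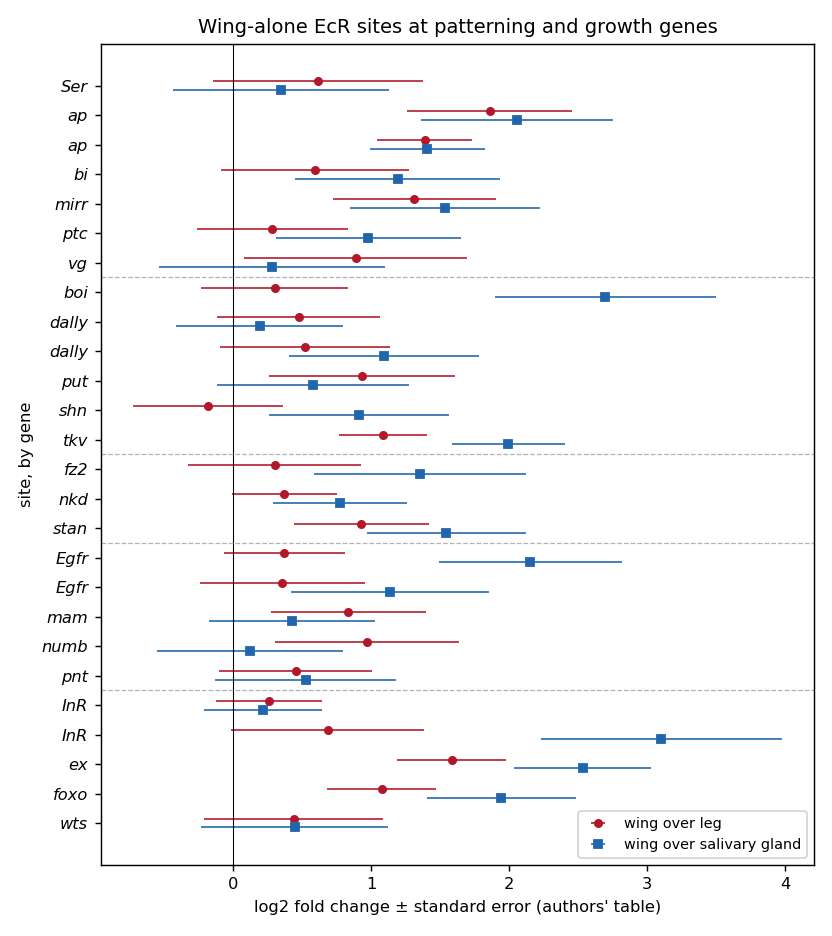
Log2 fold change with its standard error (horizontal axis, authors' deposited tables) of wing over leg (red circles) and wing over salivary gland (blue squares), for wing-alone sites at genes of wing identity, Dpp and Hedgehog, Wnt and polarity, Notch and EGFR, and Hippo and growth, from top to bottom between dashed lines, with Ser and ptc drawn once. Of the sites drawn, only those at ap from 5727148 and at ex were called between wing and leg.

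Leg and ventral appendage genes held 6 wing-alone sites among 31, 19.4%, 2 of them the adjoining ones of ap, which also acts in the leg. The site 1706 bp from Distal-less (Dll), the selector of distal limbs, on 2R from 24837270 to 24837475, was higher in wing than gland (2.38, SE 0.69, adjusted p = 0.00409) and had 1.12 for wing over leg (SE 0.52, adjusted p = 0.316) in the authors' deposited table. It was the only EcR site of Dll, a gene also expressed at the wing margin. The dysf site, near a gene of leg joint formation, was called against the gland as well (1.98, adjusted p = 0.00171), while bab1, a gene of tarsal patterning, and B-H2, a Bar homeobox gene, had 1.83 and 0.47 without a call in the authors' deposited table. Of 8 Hox genes, 2 had EcR sites, 8 in all, and none was wing-alone. So few sites could hold 0 at the 11.7% of all kept sites.

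Genes of the ecdysone response held 8 wing-alone sites among 206 EcR sites, 3.88%, beside 11.7% over all kept sites. They were 3 in Eip74EF, an Ets factor gene induced early by ecdysone, and 1 each in or near the nuclear receptor genes Eip75B, Eip78C, Hr3 and Hr4 and the disc gene ImpE1. In Eip75B it was 1 of 57 sites, of which 23 were sites of all 3 tissues, and in Eip74EF 9 of 18 sites were of all 3 tissues. Called higher in wing than gland were the sites in Eip75B (2.15, SE 0.80, adjusted p = 0.0187) and 185 bp from ImpE1 (1.47, SE 0.55, adjusted p = 0.0188) in the authors' deposited table. The Eip74EF sites had -0.17, -0.35 and 1.02, Hr4 0.15, Hr3 -0.36 and Eip78C -0.24 without a call in the authors' deposited table. No wing-alone site lay at the 3 genes of ecdysone synthesis, uptake and turnover that had sites. They had 10 sites in all, few enough to hold 0 at the 11.7% of all kept sites.

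Disc eversion and matrix genes held 6 among 36 sites, 16.7%. The larger of the Sb values was given above, and the other Sb site had 0.88 (SE 0.49, adjusted p = 0.116) for wing over gland in the authors' deposited table. A site within 2000 bp of pio, a zona pellucida protein gene of the apical matrix, had 2.35 (adjusted p = 0.0145) and one in zip, the heavy chain gene of non-muscle myosin, 1.68 (adjusted p = 0.0266) in the authors' deposited table. Those at dpy, which encodes a giant matrix protein that anchors the wing, and tyn, a further zona pellucida gene, had -0.21 and 0.79 without a call in the authors' deposited table. In the cell cycle list the 3 sites were all inside E2f1, a transcription factor gene of S phase, with 1.64 (SE 0.49, adjusted p = 0.0025), 0.95 and -0.28 for wing over gland in the authors' deposited table. The chitin synthase gene kkv, from the cuticle list, had 1.29 for wing over leg (SE 0.44, adjusted p = 0.113) in the authors' deposited table.

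The lists of cell death and autophagy, salivary gland identity and secretion, fat body markers and haemocyte markers held no wing-alone site, among 15, 11, 8 and 4 EcR sites. With 11.7% of all kept sites wing-alone, lists this short could hold 0 at the common share. Marker lists of muscle and disc myoblasts, trachea and neurons held 1 each, at twi, pyd and futsch, among 12, 9 and 3 sites. Wing discs carry myoblasts and tracheal cells, and their part in these sites was not tested. The pyd site was called higher in wing than gland (4.79-fold, adjusted p = 0.036) and had no adjusted p against the leg in the authors' deposited table. In all, 42 of the 358 listed genes had a wing-alone site, and 155 had any EcR site. The 51 wing-alone sites at listed genes were 9.71% of the 525 EcR sites there.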

How the data were processed

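The members and gene lists were chosen with earlier results of these data known. Per the submitters' processing notes, the authors worked on dm6 with the peak caller MACS2 2.1.2, with DESeq2 under R 3.5.2, and with the aligner Bowtie2 2.3.4.1. SAMtools 1.9, bedtools 2.26 and Picard 2.2.4 are named there too, without their settings. Names of the deposited lists say that replicates were merged, duplicates were removed and only fragments from 20 to 120 bp remained, and peak names point to merged wing IgG libraries as control for every list. Each deposited peak has a fold enrichment over background (a ratio), a −log10 q and, not used here, the offset of its summit in bp, which is an other value. The tables hold the authors' deposited mean normalised count (a signal over libraries), log2 fold change and its standard error, Wald score, p-value and adjusted p-value. Which libraries entered that fit is not stated. The files hold no counts per library, so depth is unknown and the planned count test gave way to the authors' adjusted p.

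The authors' overlap columns equalled an overlap of at least 1 bp with the 6 lists at all 3463 sites. A site took the highest fold enrichment and −log10 q of its peaks. Starts were given 1-based. Sites were named by the coding span (RefSeq table, Release 6 plus ISO1 MT, 13962 coding genes) holding their middle, or the nearest one. Genes of 19 lists counted sites within 2000 bp, under current or older symbols. Centred calls took the median fold change of the kept sites, over its standard error, off the score, with normal p-values and Benjamini-Hochberg adjustment. They are approximate. Shares have exact (Clopper-Pearson) 95% intervals. Named sites were the strongest peaks in the wing lists, those at the ends of each comparison, those with leg or gland pellet peaks, the weakest, and those at listed genes. Python 3.11.15, pandas 2.3.3 and scipy 1.17.1 were used.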

Additional observations from a re-analysis of the deposited data

How the results depend on the processing

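The number of wing-alone sites fell to 43 when wing peaks had to reach a −log10 q of 10, and was 329 to 420 under the other settings. With all 355 members kept and the same minimum set on pellet peaks instead, the wing pellet share was 8.45% and the gland pellet share 0.282%. Calls between wing and leg numbered 15 after centring and 2 to 3 otherwise. Calls between wing and gland were 60 at an adjusted p under 0.01, 42 for members with a mean count at or above the median (82 members) and 77 for those with a wing pellet peak; those between leg and gland were 21, 18 and 31, and 32 after centring. The settings on mean count and on a wing pellet peak keep fewer members by construction, while centring keeps all 355. Without 2R under 6 Mb, chosen after seeing the data, calls were 2, 131 and 51. Gene list counts (34 to 47 genes) and the share inside spans (58.1% to 61.7%) stayed close. No paired analysis was possible because the tables hold no value per library, and for the same reason leaving out a replicate was not run. Motif shares were not run, since no genome was used here. The part of low counts in the calls was not tested. Median standard errors at the members were 0.55 for wing over leg and 0.65 for wing over gland in the authors' deposited table.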

Other observations

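The rule for position set aside 65 further sites with a wing supernatant peak alone, 41 of them on 3R and 8 on chromosome Y. In the authors' deposited table, 51 of these 65 were higher in wing than gland and 45 higher in leg than gland, with medians of 1.94 and 1.97 on the log2 scale. Over all sites of that table, 28.7% were called higher in wing than gland and 29.6% higher in leg than gland. The 65 sites had a median for wing over leg of 0.04 in the authors' deposited table, and 0 were called. A wing pellet peak stood at 37 and a leg pellet peak at 36, against 2 with a gland pellet peak. The members themselves had 131, 16 and 10 of 355. Only 9 of the 65 were inside a coding gene span. The 8 sites on chromosome Y had medians of 1.14 for wing over leg and 0.37 for leg over gland in the authors' deposited table. Of these 8, 6 had a wing and 1 a leg pellet peak. The larvae were female, and where signal on Y came from was not tested.

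Some members kept by the rule also lay near a centromere, and they were not all alike. In the first 6 Mb of 2R, 5 members had wing over gland of 1.41 to 2.08 in the authors' deposited table, beside a median of 1.44 over the 38 sites there. The highest mean normalised count of any member in the authors' deposited table, 87.7, belonged to a site there, 30102 bp from CG40191, with a wing supernatant fold enrichment of 2.55 and a leg pellet peak. The 2 ap members in those 6 Mb had leg over gland of 0.20 and 0.02 in the authors' deposited table and no leg pellet peak. In the same table the members near DIP-lambda and CG40191 had 1.86 to 2.23, each with a leg pellet peak.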
